A study of Mus musculus with 20 samples.

Results

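The 10 genes described here are the nucleic acid sensors of innate immunity and their adaptors that were chosen by name: Ddx58, Ifih1, Dhx58, Mavs, Tmem173, Zbp1, Tlr3, Tlr7, Tlr9 and Aim2. Every non-control probe whose gene name on the array was one of these was taken, which gave 15 probes for the 10 genes, out of 39429 probes and 31093 gene names. RNA came from peripheral blood of male littermates of 8 to 10 weeks on the C57BL/6 background, bred from heterozygous parents, that were labelled WT or Il10-/- (B6.129P2-Il10tm1Cgn/J, a germline knockout of interleukin-10). The mice received 7 Gy of X-rays to the whole body or a sham exposure (0 Gy), and blood was taken by cardiac puncture 24 h later into PAXgene solution, a fixative that lyses the cells. Globin RNA was reduced in all samples. Each of the 4 groups had 5 single-colour Agilent arrays, 1 per mouse.

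Cells recognise foreign or misplaced nucleic acid with a small set of receptors. RIG-I (Ddx58) and MDA5 (Ifih1) are cytosolic helicases that bind double-stranded RNA and signal through the mitochondrial adaptor MAVS, and LGP2 (Dhx58) is a related helicase without the signaling domains that tunes them. Cytosolic DNA activates the synthase cGAS, whose product binds STING (Tmem173), while AIM2 binds DNA directly and assembles an inflammasome. ZBP1 binds nucleic acid in the left-handed Z form and can start necroptosis. TLR3, TLR7 and TLR9 sit in endosomes and recognise double-stranded RNA, single-stranded RNA and unmethylated CpG DNA. Several of these genes are themselves interferon-stimulated genes. In blood, B cells and plasmacytoid dendritic cells are among the cells from which TLR7 and TLR9 are known. Blood was measured as a whole, so for every gene below fewer cells of a type and less RNA per cell cannot be told apart.

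The probes that carry the results, and the promoters in which a known interferon element was found, are shown first. Whether a probe also binds transcripts of other genes was not tested. Positions of probes are those of the array annotation in mouse build mm9, and the exons they lie in were not analysed here. For each probe only 30 of its 60 bases are shown, with the letters AATAAA, the usual polyadenylation signal, in capitals where the probe held them, as 7 of the 15 did. The probes for Ifih1 and Dhx58 lay at chr2:62435507-62435566 and chr11:100556271-100556330, both on the minus strand. Ddx58, Zbp1 and Tlr7 each had a pair of measured probes, all on the minus strand. The pair for Ddx58 lay at chr4:40151893-40151952 (probe 1) and chr4:40151133-40151192 (probe 2). The pair for Zbp1 lay at chr2:173039307-173039366 (probe 1) and chr2:173032258-173032317 (probe 2). The pair for Tlr7 lay at chrX:163742863-163742922 (probe 1) and chrX:163743146-163743205 (probe 2).
Ifih1: aactgcaagctacAATAAAtcatttcttcc
Dhx58: ggaagatgaacgcaggagaattattatgcc
Zbp1 probe 1: caagctggtcttgaacccacagagatcttc
Zbp1 probe 2: acagatgtgacatgaaagtacatgtaacac
Ddx58 probe 1: ctctagctattttcAATAAAggctcatgtt
Ddx58 probe 2: aattcttagtgcAATAAAatgaatttgccg
Tlr7 probe 1: agagttcaatgaAATAAAagcccagagaac
Tlr7 probe 2: cataaatgaaggtctgaatttttcctaaca

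RefSeq promoters, from 250 bases before to 50 after the start site in build GRCm38.p6, were found for 6 of the 10 genes: Ddx58, Ifih1, Mavs, Tlr3, Tlr9 and Aim2. They were searched on both strands for the interferon-stimulated response element, spelled GAAA, any 2 bases, GAAA, and for the gamma-activated site, written TTCNNNGAA. The first was found in Ifih1 and Ddx58 and in 3.44% of the 32851 promoters in the table, and the second in none of the 6 and in 8.3% of all. No element was counted in both searches. In the promoter of Ifih1 (chr2:62646206-62646505, minus strand) the match began 33 bases after the start site. In that of Ddx58 (chr4:40239776-40240075, minus strand) it began 3 bases after the start site and lay on the opposite strand, so that its reverse complement is read below. The match is in capitals in each sequence, and it is a description of the letters only.
Ifih1: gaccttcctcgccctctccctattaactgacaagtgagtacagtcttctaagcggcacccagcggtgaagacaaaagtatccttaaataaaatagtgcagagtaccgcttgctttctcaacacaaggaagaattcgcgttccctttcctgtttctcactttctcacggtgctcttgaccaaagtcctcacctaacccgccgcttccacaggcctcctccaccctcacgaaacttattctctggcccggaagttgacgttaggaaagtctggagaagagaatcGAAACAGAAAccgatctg
Ddx58: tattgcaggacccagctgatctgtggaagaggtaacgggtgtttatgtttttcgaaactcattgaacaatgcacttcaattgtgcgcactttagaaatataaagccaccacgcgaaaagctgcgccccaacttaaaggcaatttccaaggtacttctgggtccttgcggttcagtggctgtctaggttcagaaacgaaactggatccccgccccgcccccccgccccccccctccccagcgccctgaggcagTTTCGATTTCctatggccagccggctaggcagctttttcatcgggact

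Levels are given as log2 signals after the median of each array was set to 0, in the order of replicates 1 to 5 unless a range is given. Since probes differ in brightness, a level is compared between groups of mice and never between probes. Of the 10 genes, 9 had a probe that passed the filter on background, and 8 also passed the filter on variability and were tested, with 11 probes. Tlr3 was not above background, and Tlr9 was above background on all 20 arrays but varied too little to be tested. Calls came from limma over all 18581 features tested and needed an unadjusted p below 0.001 together with an adjusted p (Benjamini-Hochberg) under 10%.

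The arrays were not equal in quality. Spots well above background made up 29.9% on replicate 5 of the unirradiated mice labelled WT and 34.6% on replicate 3 of the irradiated mice labelled Il10-/-, against 38.5 to 57.8% on the other 18. The SD between repeated spots of a probe was 0.889 and 0.414 on these 2 arrays and 0.137 to 0.237 on the others. Markers of B cells, T cells, neutrophils, erythroid cells and platelets were measured well above background in most or all mice of each unirradiated group. Transcripts of hepatocytes and heart muscle were also present and varied between mice of a group. The probe for Il10 gave signal in the genotype labelled as its knockout. It stood well above background on all 10 arrays labelled Il10-/- and on none of the 10 labelled WT. It was at least 7.12-fold brighter in the former at 0 Gy and at least 8.0-fold at 7 Gy. Whether this probe lies outside the altered part of the gene is not given in the sources used here, so every direction between genotypes rests on the labels. The mean over neutrophil markers at 0 Gy was 8.4 to 9.9 in mice labelled Il10-/- and 6.2 to 7.9 in mice labelled WT. The paper reports a higher baseline level of neutrophils in Il10-/- mice. The labels were not tested further.

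**Figure D1:**
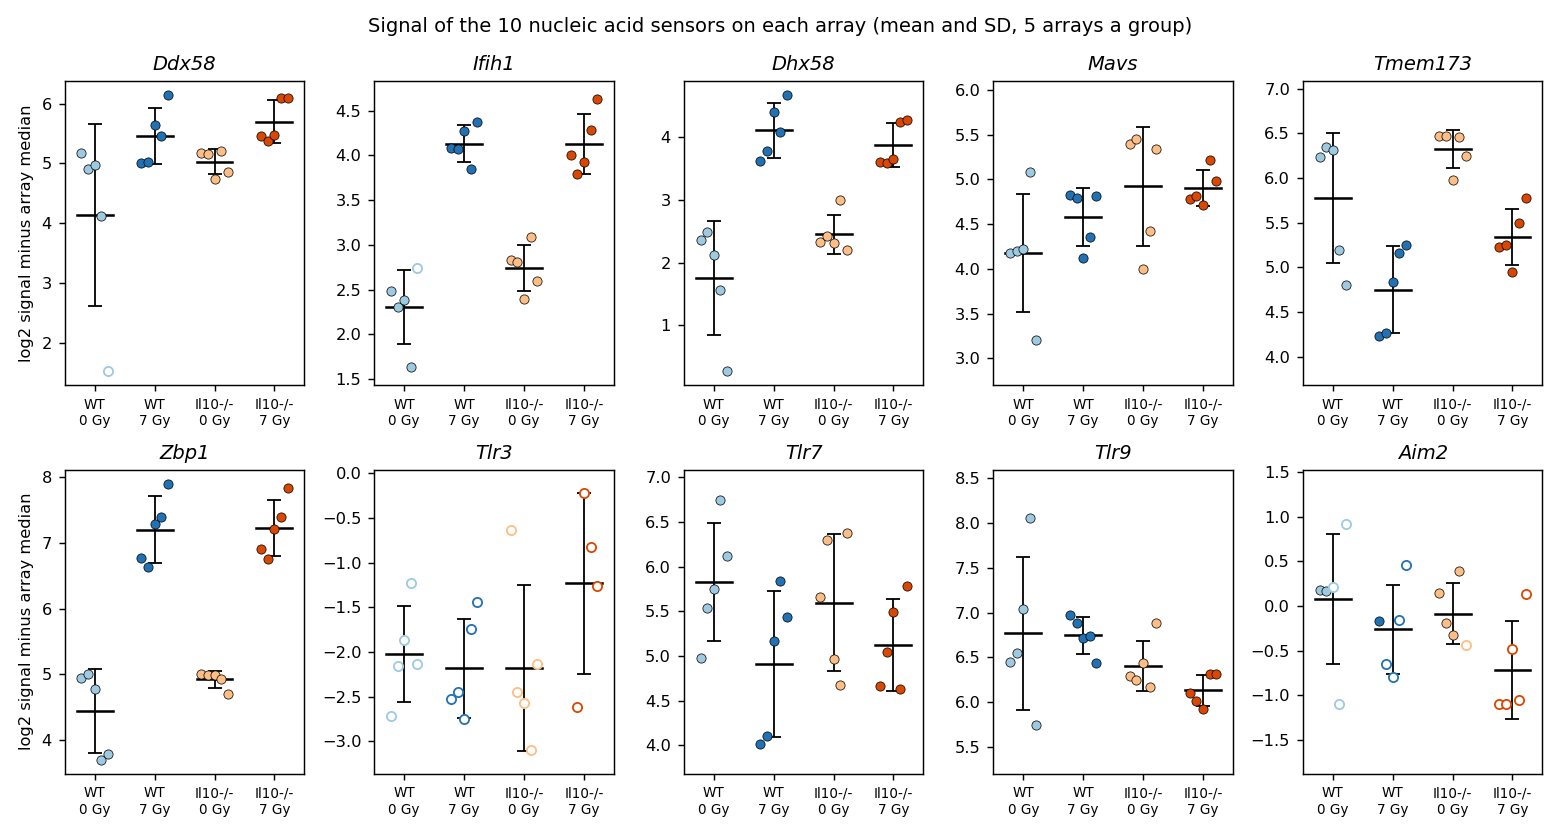
Log2 signal of each of the 10 genes (probe 1 where a gene had several) on every array, with the array median at 0, in the 4 groups; each panel has its own vertical axis. Points are arrays in the order of replicates, open where the spot was not well above background, and lines give the mean and SD of 5 arrays (4 for Tlr3 in irradiated mice labelled Il10-/-). The groups at 0 Gy and 7 Gy do not overlap for Ifih1, Dhx58 and Zbp1 in either genotype.

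After 7 Gy, 3 of the 8 genes tested rose in mice labelled WT, namely Zbp1, Dhx58 and Ifih1, and none fell, although Tmem173 was lower at an unadjusted p below 0.05 in limma. The same 3 genes rose in mice labelled Il10-/-, where Tmem173 fell. Of all 15743 genes tested, 7.27% were called in mice labelled WT (4.85% higher and 2.43% lower), and 9.85% in mice labelled Il10-/- (3.53% higher and 6.34% lower). Groups did not overlap for 12.5% of genes upwards and 4.6% downwards in the former, and for 6.51% and 11.7% in the latter. With each array scaled by its 75th percentile in place of the median, the genes called in mice labelled WT were split into 735 higher and 679 lower, where the main scaling gave 763 and 383, and without the weak replicate 5 of the unirradiated mice they were split into 637 and 775. With arrays scaled to a reference array the split in mice labelled Il10-/- was 847 and 839, where the main scaling gave 555 and 998, and the lower calls numbered 614 and 609 without replicate 1 or 2 of the unirradiated mice. The median difference over the 8 genes was 0.86 in mice labelled WT, beside -0.03 over all genes tested, and 0.33 in mice labelled Il10-/-, beside -0.10. With normexp background correction no gene at all was called in mice labelled Il10-/-, where 436 features had an unadjusted p below 0.05 in limma, and Zbp1, Ifih1 and Dhx58 then had an adjusted p of 0.944 each. Each irradiated or unirradiated group entered both a response and a comparison of genotypes.

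Ifih1 rose in both genotypes. In unirradiated mice labelled WT its log2 levels were 2.48, 2.31, 2.38, 1.63 and 2.74, and in irradiated mice 4.08, 4.07, 4.28, 3.85 and 4.37. Every irradiated mouse was above every unirradiated one. The lowest unirradiated value was that of replicate 4, and the spot on the weak replicate 5 was not well above background. Ifih1 rose by 1.82 (SE 0.36, adjusted p = 0.00372), a 3.54-fold difference. With quantile normalization it was 1.52 and no longer called (adjusted p = 0.0212). On the 5 slides, each of which held 1 array of every group, the rise was 1.60 to 2.22. In mice labelled Il10-/- the levels were 2.83, 2.81, 2.40, 3.08 and 2.59 before and 4.01, 3.79, 3.93, 4.29 and 4.63 after irradiation. These groups did not overlap either, and the rise was 1.39 (SE 0.24, adjusted p = 0.00214), or 2.62-fold. After irradiation the 2 genotypes lay at the same mean level of 4.13. The other probe for Ifih1 was not well above background on any array and gives no measurement.

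Dhx58, the helicase that lacks the signaling domains, had a larger estimated rise than Ifih1 in mice labelled WT, a difference that was not tested. Its unirradiated levels there were 2.36, 2.49, 2.13, 1.56 and 0.27, and its irradiated levels 3.62, 3.79, 4.40, 4.08 and 4.68. Replicate 5, the weak array, was the lowest of the unirradiated mice, and no irradiated mouse came below 3.62. The difference was 2.35 (SE 0.45, adjusted p = 0.00345), a 5.10-fold rise, and without that array it was 1.98 (adjusted p = 0.00228). Ifih1 rose by 1.93 without the same array, so the estimates of the 2 genes were then close. With normexp background correction the difference for Dhx58 was 1.32 and not called (adjusted p = 0.0492), beside a median of 0.65 over all features. In mice labelled Il10-/- Dhx58 was at 2.33, 2.42, 2.32, 3.00 and 2.2 before and at 3.60, 3.59, 3.66, 4.25 and 4.28 after irradiation. The groups did not overlap, and the rise was 1.42 (SE 0.25, adjusted p = 0.00246), or 2.68-fold. The rise in mice labelled Il10-/- was smaller by 0.93 (95% interval of the difference -2.0 to 0.14, adjusted p = 0.689), so a difference between the genotypes was not called. Without the weak array it was -0.56.

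Ddx58 did not pass the threshold in either genotype. With probe 1 it was at 5.17, 4.91, 4.98, 4.11 and 1.52 in unirradiated and 5.01, 5.02, 5.63, 5.45 and 6.15 in irradiated mice labelled WT. The value of 1.52 was from the weak array, where the spot was not well above background, and the other arrays overlapped between the groups. The difference was 1.32 (SE 0.60, adjusted p = 0.155), and without that array it was 0.66 (adjusted p = 0.175). In mice labelled Il10-/- the levels were 5.17, 5.16, 4.74, 5.20 and 4.85 before and 5.45, 5.38, 5.47, 6.10 and 6.09 after irradiation. Here the groups did not overlap, and every slide had the irradiated array higher, but the difference of 0.67 (SE 0.23) had an adjusted p of 0.0586. Such a rise without overlap was found in 6.51% of all genes in this comparison. Ddx58 passed the threshold in mice labelled Il10-/- when arrays were scaled to a reference array, with 0.82 (adjusted p = 0.00883), and in the authors' processed values, with 0.82 (adjusted p = 0.00923). Probe 2, which was dim, differed by 0.85 (SE 0.49) and 0.22 (SE 0.34) in the 2 genotypes, and its groups overlapped in both.

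Mavs, the adaptor that RIG-I and MDA5 share (probe at chr2:131073675-131073734, plus strand), showed no call. Its levels were 4.18, 4.2, 4.22, 5.09 and 3.21 in unirradiated and 4.83, 4.79, 4.12, 4.36 and 4.81 in irradiated mice labelled WT. Within the genotype labelled Il10-/- they were 5.40, 5.45, 3.99, 4.43 and 5.34 before and 4.78, 4.82, 4.72, 5.22 and 4.99 after irradiation. The groups overlapped in both genotypes. The differences were 0.41 (95% interval -0.44 to 1.26) and -0.02 (-0.69 to 0.65). The sign of the latter changed with the scaling of the arrays.

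**Figure D2:**
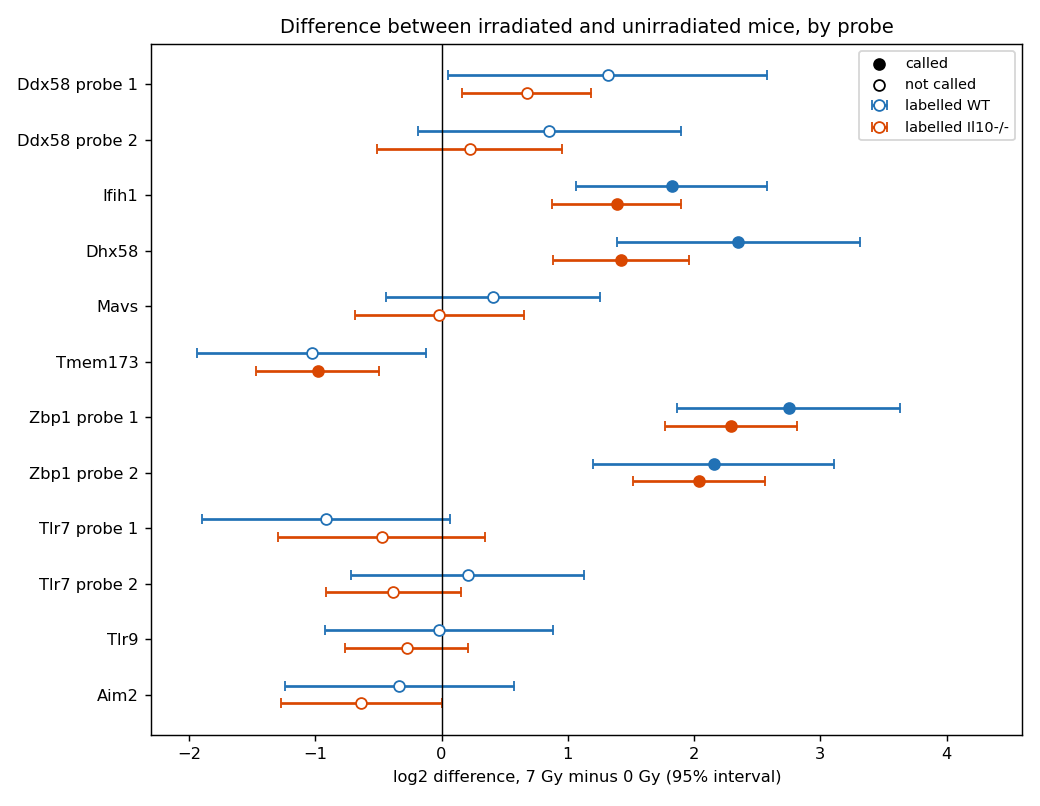
Log2 difference between irradiated and unirradiated mice (7 Gy minus 0 Gy) for the 12 probes above background, in mice labelled WT and labelled Il10-/-, with 95% intervals from the limma fits; filled points were called. Zbp1 with both probes, Dhx58 and Ifih1 lie to the right of 0 in both genotypes, and Tmem173 lies to the left, called in mice labelled Il10-/- alone.

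Zbp1, the sensor of Z-form nucleic acid, had with probe 1 the largest rise of the 8 genes in both genotypes. Both of its probes were called in each genotype. With probe 2 the rise in mice labelled WT, 2.15, was below that of Dhx58 (2.35). With probe 1 the levels in mice labelled WT were 4.94, 5.01, 4.78, 3.70 and 3.80 at 0 Gy and 6.77, 6.64, 7.29, 7.39 and 7.90 at 7 Gy. The lowest irradiated mouse stood 1.63 above the highest unirradiated one. The rise was 2.75 (SE 0.42, adjusted p = 0.000822), or 6.72-fold, and without the weak array it was 2.59 (adjusted p = 0.0013). Probe 2 rose by 2.15 (SE 0.45, adjusted p = 0.0055). For mice labelled Il10-/- probe 1 was at 5.01, 4.99, 5.00, 4.93 and 4.70 at 0 Gy and at 6.91, 6.75, 7.21, 7.39 and 7.83 at 7 Gy. The unirradiated mice of this genotype lay close together, and all irradiated mice were above them. The rise was 2.29 (SE 0.24, adjusted p = 8.32e-05), or 4.90-fold, and with probe 2 it was 2.04 (SE 0.24, adjusted p = 0.000192). After irradiation the means of probe 1 were 7.19 and 7.22 in the genotypes. Those of probe 2 were 4.37 in mice labelled WT and 4.86 in mice labelled Il10-/-, higher in the latter on all 5 slides. That difference of 0.49 (SE 0.31, adjusted p = 0.553) was not called.

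Within slides, Zbp1 with probe 1 rose by 1.63 to 4.10 in mice labelled WT and by 1.76 to 3.13 in mice labelled Il10-/-. In both genotypes the differences were smallest on slides 1 and 2 and largest on slides 4 and 5. The arrays of slides 4 and 5 also had fewer spots well above background in the groups labelled WT, 29.9 to 45.0% against 47.2 to 55.5% on the other slides. In irradiated mice labelled Il10-/- the shares were 51.7, 53.8, 34.6, 39.0 and 41% on slides 1 to 5. In unirradiated mice of that label they were 54.8, 52.1, 53.4, 57.8 and 49.4%. The part of the slide in the size of the rise was not tested beyond the fit with the slide as a block, in which Zbp1, Dhx58 and Ifih1 stayed called in both genotypes.

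**Figure D3:**
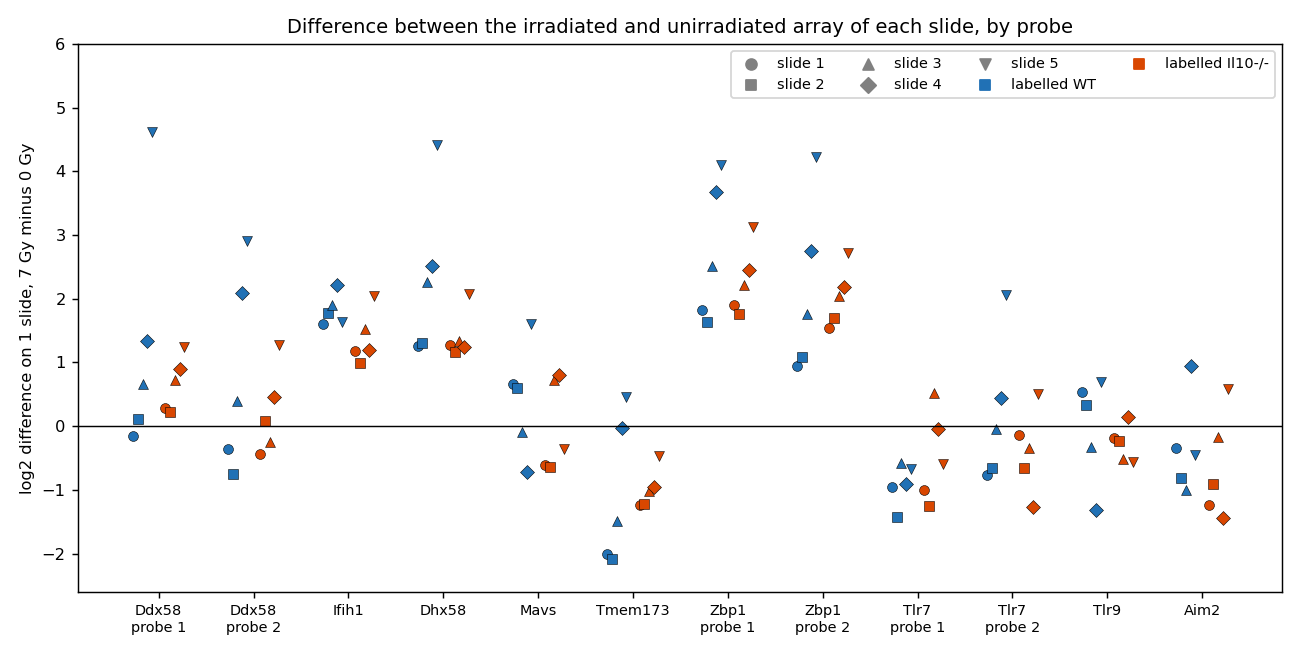
Log2 difference between the irradiated and the unirradiated array of the same slide (7 Gy minus 0 Gy) for the 12 probes above background, with 1 symbol per slide and colour for the genotype label. For Ifih1, Dhx58 and both probes of Zbp1 all 10 differences are above 0; for Tmem173 all 5 in mice labelled Il10-/- are below 0.

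Tmem173, which encodes STING, was the 1 gene of the set that fell. Among mice labelled Il10-/- its levels were 6.47, 6.46, 5.98, 6.46 and 6.25 at 0 Gy and 5.23, 5.25, 4.95, 5.50 and 5.78 at 7 Gy. The groups did not overlap, as for 11.7% of all genes tested in this direction. Tmem173 fell by 0.98 (SE 0.23, adjusted p = 0.0100), or 1.97-fold, and was lower on all 5 slides. This call was near the threshold. It was lost with the slide as a block (adjusted p = 0.0188), and it was lost in 8 of the 10 fits that left out 1 array, in which the difference stayed between -1.09 and -0.88 and the adjusted p between 0.00815 and 0.0329. It held only without replicate 3 of the unirradiated or replicate 5 of the irradiated mice. In mice labelled WT the levels were 6.24, 6.35, 6.32, 5.19 and 4.8 at 0 Gy and 4.23, 4.26, 4.83, 5.17 and 5.25 at 7 Gy. These overlapped, through replicates 4 and 5 of the unirradiated mice, and the difference of -1.03 (SE 0.43, adjusted p = 0.119) was not called. The difference between the genotypes was 0.05 (95% interval -0.93 to 1.02).

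None of the endosomal receptors was called. Tlr3 rose well above background on a single array, replicate 1 of the irradiated mice labelled Il10-/-, and that spot was left out as uneven. Tlr7 was measured with a pair of probes that did not behave alike. A further probe for Tlr7 was not well above background on any array and gives no measurement. Probe 1 was at 4.97, 5.53, 5.75, 6.75 and 6.12 in unirradiated and 4.02, 4.10, 5.17, 5.84 and 5.44 in irradiated mice labelled WT. It was lower after irradiation on each of the 5 slides, by 0.58 to 1.43, yet the groups overlapped and the difference of -0.91 (SE 0.46) had an adjusted p of 0.208. Probe 2 gave 0.21 (SE 0.44, adjusted p = 0.799) in the same mice, with 2 slides higher and 3 lower. Within the genotype labelled Il10-/- the 2 probes gave -0.47 (SE 0.38) and -0.38 (SE 0.25), and neither was called. The sign of probe 1 in mice labelled WT turned with normexp background correction, which gave 0.18, beside a median of 0.65 over all features.

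Tlr9 (probe at chr9:106128979-106129038, plus strand) was well above background on every array. Its levels were 6.44, 6.55, 7.05, 8.05 and 5.74 in unirradiated and 6.98, 6.88, 6.72, 6.74 and 6.43 in irradiated mice labelled WT, and the irradiated mice fell inside the range of the unirradiated ones. The difference was -0.02 (95% interval -0.92 to 0.88). For mice labelled Il10-/- the levels were 6.29, 6.25, 6.44, 6.17 and 6.88 at 0 Gy and 6.10, 6.01, 5.92, 6.31 and 6.31 at 7 Gy, with a difference of -0.27 (-0.76 to 0.21). Without the filter on variability, which Tlr9 did not pass, the adjusted p was 0.985 and 0.359.

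Markers of some cells in which these receptors are known moved in the same samples. The mean over 9 B-cell markers was 4.15 to 5.76 in unirradiated and 1.78 to 2.55 in irradiated mice labelled WT, and 4.26 to 5.37 and 1.51 to 1.90 in mice labelled Il10-/-. In irradiated mice labelled Il10-/- only 5 of these 9 were well above background on most arrays, and Blk on none. The mean over the B-cell list there is thus in part at background. The mean over 6 markers of plasmacytoid dendritic cells overlapped between doses, at 3.71 to 5.56 and 3.98 to 5.22 in mice labelled WT and at 4.95 to 5.41 and 4.00 to 5.06 in mice labelled Il10-/-. Its members did not move alike. Spib, which B cells also express, had means of 5.84 at 0 Gy and 2.65 at 7 Gy in the genotype labelled WT, and of 5.69 and 1.76 in the other, without overlap in either. Cox6a2, a subunit that heart muscle also expresses, had means of 2.79 and 5.71 and of 2.85 and 7.09, with overlap in both. The other members, Siglech, Ccr9, Klk1 and Pacsin1, had lower means at 7 Gy in both genotypes. They overlapped between doses in mice labelled WT, and Ccr9 and Klk1 did not overlap in mice labelled Il10-/-. Klk1 was not well above background in any irradiated mouse of the latter. The mean over 10 T-cell markers was 4.56 to 6.41 and 4.27 to 5.58 in mice labelled WT and 6.13 to 6.48 and 5.10 to 6.02 in mice labelled Il10-/-. The lists of B cells and of erythroid cells were lower at 7 Gy without overlap in both genotypes, the latter at 8.22 to 9.99 and 6.11 to 7.46 for the label WT and at 8.06 to 9.42 and 5.92 to 7.18 for the label Il10-/-. The list of T cells was lower without overlap in mice labelled Il10-/- and overlapped between doses in mice labelled WT. Platelet markers were higher without overlap in mice labelled WT, at 7.75 to 9.30 and 9.54 to 10.6. The part of these cells in the levels of Tmem173, Tlr7 and Tlr9 was not tested.

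**Figure D4:**
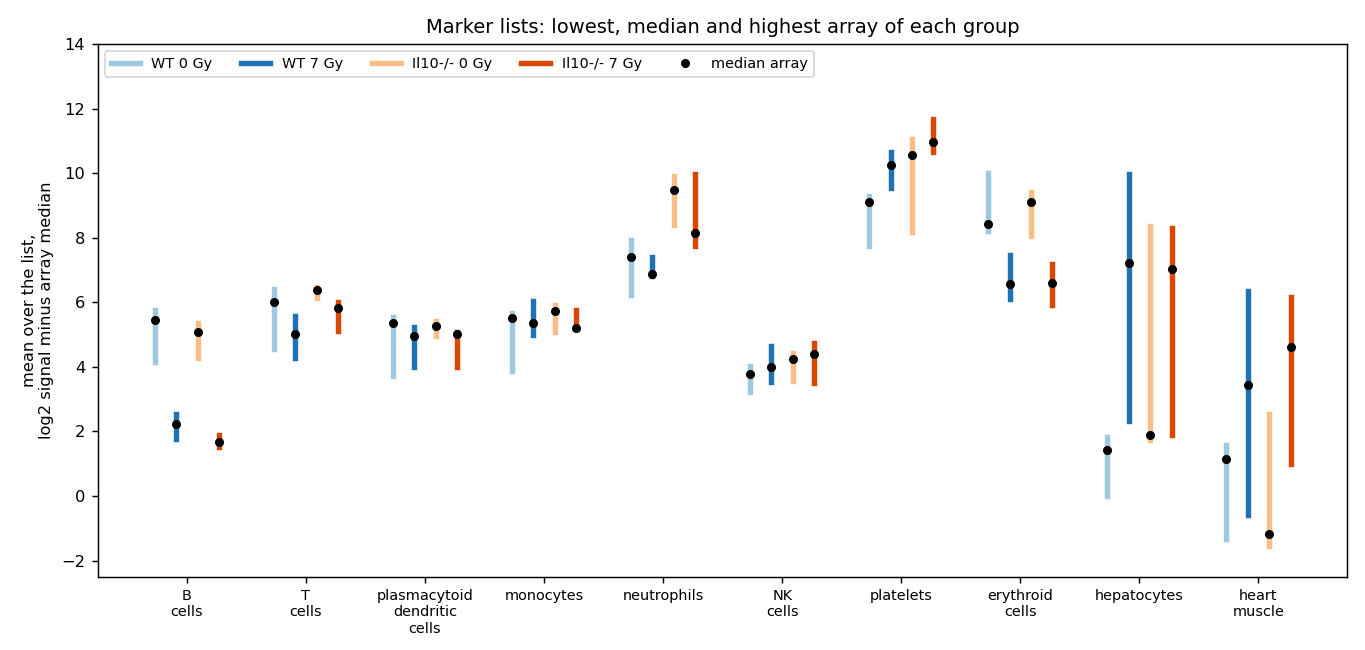
Mean log2 signal over each list of marker genes, with the array median at 0, for 10 cell types or tissues; bars run from the lowest to the highest of 5 arrays in each of the 4 groups, and black points give the median array. B-cell and erythroid markers are lower in both irradiated groups without overlap, platelet markers are higher without overlap in mice labelled WT, and hepatocyte and heart muscle markers spread widely within groups.

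Hepatocyte transcripts moved with dose in mice labelled WT. The mean over 12 hepatocyte markers was -0.01 to 1.82 at 0 Gy and 2.32 to 9.98 at 7 Gy, without overlap. The log2 of their summed signal overlapped between doses, at 6.38 to 8.0 and 7.63 to 15.6. At 0 Gy, 5 of the 12 were well above background on 3 or more arrays and Apoa1 and Cps1 on none, whereas at 7 Gy all 12 were. Among mice labelled Il10-/- the ranges overlapped, at 1.74 to 8.37 and 1.89 to 8.29, with sums of 7.16 to 14 and 6.82 to 14. The mean over 9 heart muscle markers was -1.33 to 1.58 and -0.58 to 6.35 in mice labelled WT and -1.55 to 2.53 and 1.00 to 6.16 in mice labelled Il10-/-. In the fit with both means as covariates, the hepatocyte mean and dose cannot be told apart in mice labelled WT. Of all 15743 genes, 0 were then called higher and 31 lower there, with 1486 features at an unadjusted p below 0.05 in limma, against 763 and 383 without the covariates. None of the sensors was called, and Zbp1 differed by 2.03 (adjusted p = 0.631), Ifih1 by 1.32 (adjusted p = 0.689) and Dhx58 by 1.2 (adjusted p = 0.73). Within the genotype labelled Il10-/- the same fit kept Zbp1, Ifih1 and Dhx58 as called, with 3.01 (adjusted p = 0.002), 1.85 (adjusted p = 0.0317) and 1.89 (adjusted p = 0.0303). Over all genes 238 were called higher and 238 lower there. The call of Tmem173 was lost there, with -0.67 (adjusted p = 0.455).

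Aim2, the DNA sensor of the inflammasome (probe at chr1:175396036-175396095, plus strand), was dim. Its levels were 0.18, 0.17, 0.22, -1.10 and 0.91 at 0 Gy and -0.16, -0.65, -0.79, -0.16 and 0.46 at 7 Gy in mice labelled WT, and 0.14, -0.19, -0.32, 0.39 and -0.44 at 0 Gy and -1.10, -1.09, -0.48, -1.06 and 0.14 at 7 Gy in mice labelled Il10-/-. Spots were well above background on 2, 1, 4 and 0 arrays of these groups, so that the last level is only a bound. The groups overlapped in both genotypes, and the differences of -0.34 (SE 0.43) and -0.63 (SE 0.29) had adjusted p of 0.655 and 0.141.

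Between genotypes, none of the 8 genes was called at 0 Gy, at 7 Gy or in the difference between the responses, and none reached an unadjusted p below 0.05 in limma in any of the 3 comparisons. The lowest adjusted p were 0.325, 0.453 and 0.689. Over all genes tested, 0.902% were called higher and 0% lower in unirradiated mice labelled Il10-/-, 0.00635% were called higher at 7 Gy, and 0% were called in the difference between responses. The 142 genes behind the first share were 39 with the 75th percentile, 22 with quantile normalization and 339 with the slide as a block. They were 44 without replicate 4 labelled WT, 92 without replicate 4 labelled Il10-/-, and 99 to 161 without any other single array. None of the 8 genes had groups without overlap at 0 Gy, as 4.38% of all genes did upwards. At 0 Gy the differences of the 8 genes ran from -0.23 for Tlr7 to 0.89 for Ddx58, with a median of 0.51 beside 0.35 over all genes. The value for Ddx58 rested on the weak array: without it Ddx58 differed by 0.23 and Dhx58 by 0.32, and the range was -0.16 for Tlr7 to 0.54 for Ifih1. The shift of all genes depended on the scaling and on the weak array, since the median over all features was 0.36 in the main fit, -0.07 with the 75th percentile and 0.15 without that array. At 7 Gy, leaving out Aim2, which was at or near background in both groups, they ran from -0.24 for Dhx58 to 0.59 for Tmem173, which was higher on all 5 slides. The median, Aim2 included, was 0.12 beside 0.067. For Zbp1 the 95% interval of the genotype difference at 7 Gy was -0.64 to 0.68 with probe 1 and -0.19 to 1.18 with probe 2. For Ifih1 it was -0.50 to 0.50. The differences between the responses ran from -0.93 for Dhx58 to 0.44 for Tlr7, with a median of -0.43 beside -0.19 over all genes. Without the weak array they ran from -0.56 for Dhx58 to 0.37 for Tlr7, and the median over all features was 0.02, against -0.20 with it and 0.12 with the 75th percentile.

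Tlr9 was the gene of the set whose irradiated groups did not overlap between genotypes. At 7 Gy it was at 6.43 to 6.98 in mice labelled WT and at 5.92 to 6.31 in mice labelled Il10-/-, lower on all 5 slides. The difference was -0.62 (95% interval -1.09 to -0.15), with an adjusted p of 0.351 without the filter on variability. Of the genes tested, 0.819% were lower without overlap in this comparison. At 0 Gy the groups overlapped and the difference was -0.36 (-1.24 to 0.52).

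Of 68 further genes of these pathways, 50 were tested. In mice labelled WT 6 were called higher and none lower, although 1 was lower at an unadjusted p below 0.05. For mice labelled Il10-/- 6 were called higher and 2 lower. The median differences over the 50 genes were 0.31 and -0.11 in the 2 genotypes, beside -0.03 and -0.10 over all genes tested. The largest rises in mice labelled WT were of Ifi205 (2.80, SE 0.59, adjusted p = 0.00589), a HIN-200 protein related to AIM2, of Mlkl (2.51, SE 0.38, adjusted p = 0.000822), the executor of necroptosis downstream of ZBP1, and of Usp18 (2.47, SE 0.38, adjusted p = 0.0009), which restrains interferon receptor signaling. Among mice labelled Il10-/- they were of Usp18 (2.44, SE 0.27, adjusted p = 0.000134), of Ifi204 (2.09, SE 0.26, adjusted p = 0.000267), another HIN-200 protein, and of Ifi205 (1.86, SE 0.31, adjusted p = 0.00187). The HIN-200 genes are close copies, so their probes may share signal. The genes that fell were Trim25 (-1.16, SE 0.22, adjusted p = 0.00428), a ubiquitin ligase that acts on RIG-I, and the helicase Dhx36 (-1.03, SE 0.24, adjusted p = 0.0106).

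By list, the other sensors had 3 of 8 tested genes called higher in mice labelled WT (Eif2ak2, Ifi204 and Ifi205) and 2 higher and 1 lower in mice labelled Il10-/-. Of 6 tested effectors of AIM2 and ZBP1, Mlkl and Pycard rose in mice labelled WT and Mlkl in mice labelled Il10-/-. Of 13 adaptors, kinases and transcription factors none was called in mice labelled WT, and Irf7 rose and Trim25 fell in mice labelled Il10-/-. Of 12 nucleases and regulators Usp18 rose in mice labelled WT, and Usp18 and Trex1 rose in mice labelled Il10-/-. None of 7 genes of endosomal receptor trafficking and none of 4 of interferon receptor signaling was called in either genotype. Over all genes, 7.27% were called in mice labelled WT and 9.85% in mice labelled Il10-/-, in either direction.

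The named partners of the sensors behaved differently from each other. Irf7, the transcription factor downstream of TLR7 and TLR9, was at a mean of 5.03 in unirradiated and 6.92 in irradiated mice labelled WT, without overlap, a difference of 1.88 (SE 0.53, adjusted p = 0.0271) that was not called. Within the genotype labelled Il10-/- Irf7 rose by 1.56 (SE 0.31, adjusted p = 0.00472). Mb21d1, the DNA sensor cGAS that acts upstream of STING, differed by -0.05 (SE 0.40) and -0.09 (SE 0.29), and Irf3, the factor downstream of MAVS and STING, by 0.28 (SE 0.42) and -0.27 (SE 0.25). Ifnb1, the interferon that these receptors induce, was not well above background on any array of the 4 groups.

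Over the 20 arrays, the genes most like Zbp1 were Oas1a (r = 0.99), Cdkn1a (r = 0.98) and Ifi204 (r = 0.98). With the group means removed, they were Oas1a (r = 0.94), Tor3a (r = 0.93) and Ifi204 (r = 0.92). For Dhx58 the first 3 were Ifi35, Bax and Ccl9 (r = 0.98, 0.98 and 0.97), and for Ifih1 they were Kank3, Mertk and 5430435G22Rik (r = 0.97, 0.95 and 0.95). With group means removed these lists held other genes, Nrm, Arhgap17 and Slfn8 for Dhx58 and Slc52a3, Cask and Utrn for Ifih1. Tmem173 was most like Ankrd44, Traf3 and Donson (r = 0.98, 0.98 and 0.97), Ddx58 like Trim14, Rap1b and Tor1aip1 (r = 0.97 for each), Tlr7 like Rgs20, Erich5 and Pi4k2a (r = 0.98 for each), Mavs like Prdx3, Tuba4a and Cd59a (r = 0.93, 0.92 and 0.92), and Aim2 like Efcab9, Gm4532 and Chtf18 (r = 0.81, 0.77 and 0.77). With group means removed Tlr7 kept Rgs20 and Erich5 (r = 0.98 and 0.97), and the lists for Tmem173, Ddx58, Mavs and Aim2 held other genes. Where group means were kept, a shared difference between doses also raises r. These correlations describe arrays that share their slides and signal quality, and Pearson's r was chosen as the highest of all tested genes.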

How the data were processed

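Blood RNA of 20 mice was hybridised to single-colour Agilent 4x44K arrays. Per the file headers and the authors' methods, each deposited file is Agilent Feature Extraction output (version 10.7 in the submitters' processing notes, 12.0.2.2 in the headers), and the column used is a background-subtracted intensity per spot, with no scaling across arrays. Log2 processed values, scaled by 1 constant per array, were deposited as well and served as an alternative. Intensities were converted to log2, non-uniform spots were left out, repeated spots were averaged, and each array's median over 39429 probes was subtracted. Following the study's methods, probes marked on 25% or more of the arrays, or differing by 1.5-fold from their median on under 20% of them, were removed. Comparisons were fitted in limma 3.58.1 (R 4.3.3, package data.table, version 1.17.8), each with the arrays of its groups, the difference of responses with all 20. Python 3.11.15 with pandas 2.3.3 and matplotlib 3.10.9 was used for sequences and plots. The fits were tested on simulated data. Groups and replicate numbers came from the sample labels. Each replicate number is 1 slide and 1 scan. Deviations of same-numbered arrays correlated by -0.66 to 0.68. The mean over slides was 0.41 for the 2 irradiated groups and 0.22 for the 2 groups labelled WT, with 4 of 5 slides above 0.1 in each. For the other pairs of groups the mean was -0.13 to 0.07. Arrays of a slide may therefore not be independent, and the block was run as an alternative. With it, 1035 genes were called higher and 441 lower in mice labelled WT. In mice labelled Il10-/- they were 359 and 827. The labels give replicate numbers only, and the paper describes blood collected from each mouse. The p-values measure the spread between the arrays of a group. Precision rests on 5 arrays a group. Where a gene had several probes, it was called if 1 was, and the brightest passing probe gave its value, probe 1. The members, gene lists and named genes (all 10 members, Il10, the named partners, the largest 3 called rises and falls of the pathway lists, and 3 most similar genes) were chosen with earlier results of these data known. Pathway lists: other sensors, adaptors with kinases and transcription factors, effectors, trafficking, nucleases with regulators, and interferon receptor signaling. Alternatives were other scalings, normexp with an offset of 50, the authors' values, filters, thresholds, variances, blocks, covariates and leaving out each array.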

Additional observations from a re-analysis of the deposited data

Results flagged for a closer look

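Among 48 sets of 5 arrays (12 probes in 4 groups), 3 held an array far from the others, where chance gives about 1 in 20. Ddx58, probe 1, was lowest on replicate 5 of the unirradiated mice labelled WT, at 1.52, where the next lowest array was at 4.11. That array was also the one with the fewest spots well above background, and the part of its quality was not tested. Dhx58 was highest on replicate 4 of the unirradiated mice labelled Il10-/-, at 3.00 against 2.42 for the next. Zbp1, probe 1, was lowest on replicate 5 of the unirradiated mice labelled Il10-/-, at 4.70 against 4.93 for the next.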

How the results depend on the processing

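The calls of Zbp1, Dhx58 and Ifih1 held without each array in turn in both responses, but quantile normalization lost Ifih1 and normexp lost Dhx58 in mice labelled WT. In mice labelled WT the genes called higher fell to 0 with the hepatocyte and heart muscle covariates, and in mice labelled Il10-/- normexp gave 0 higher and 0 lower. The call of Tmem173 was the 1 gene lower, and that count was 0 without the filters, with all 4 groups in 1 fit, with the slide as a replicate block and with the covariates, and 0 to 1 when an array was left out. The slide block moved 3 of 60 results, all through lower calls in mice labelled Il10-/-, where it also left 5 in place of 6 pathway genes called higher. It changed no other count of calls among the sensors or pathway genes. The pathway genes called higher in mice labelled WT numbered 11 at a false discovery rate under 5% alone, 11 with all 4 groups in 1 fit and 0 with the covariates (4 to 6 without 1 array). For mice labelled Il10-/- they were 11 with the reference array, 10 with the authors' values, 0 with normexp and 11 at the 5% rate (6 to 6 without 1 array). The pathway genes called lower there were 1 with the 75th percentile, without filters, in the 4-group fit and with the block, 0 with normexp and the covariates, and 7 at the 5% rate (1 to 4 without 1 array).

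Signs turned in the following values, none of them called, and the cause was not tested. In mice labelled WT Tlr7 was 0.18 with normexp, and with the covariates Ddx58 was -0.67, Mavs -0.063 and Tlr7 0.90. Among mice labelled Il10-/- Mavs was 0.010 with the 75th percentile, 0.13 with the reference array and 0.13 in the authors' values (-0.25 to 0.11 without 1 array), and Aim2 was 0.29 with the covariates. At 0 Gy between genotypes Tlr7 was 0.38 with normexp and 0.51 with the covariates (-0.44 to 0.00041 without 1 array), and Aim2 ran from -0.45 to 0.051 without 1 array. At 7 Gy between genotypes Zbp1 was -0.073, -0.029 and -0.028 with the 75th percentile, the reference array and the authors' values. Normexp gave -0.54 for Ddx58, -0.39 for Mavs, -0.19 for Tmem173, -0.81 for Zbp1 and -0.42 for Tlr7. The covariates gave 0.25 for Ifih1 and 0.11 for Dhx58. Without 1 array Ifih1 ran from -0.13 to 0.083, Zbp1 from -0.13 to 0.20 and Tlr7 from -0.014 to 0.44. In the difference between responses Ddx58 was 0.011 in the authors' values (-0.90 to 0.011 without 1 array), Tmem173 was -0.93 and Tlr7 -0.79 with normexp, Tmem173 ran from -0.094 to 0.29 without 1 array, and the covariates gave -0.39 for Tlr7 and 0.045 for Aim2. Normexp also moved the median over all features. It was 0.65 in the response of mice labelled WT, where the main fit gave -0.02. Between genotypes it was 0.53 at 0 Gy and -0.50 at 7 Gy, where the main fit gave 0.36 and 0.078. In the difference between responses it was -1.01, against -0.20 in the main fit.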
